A study of Macaca mulatta with 23 samples.

Results

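The state of CD8+ effector memory T cells (TEM) under blockade of interleukin-15 (IL-15) was described from the 12 arrays taken after treatment, 6 from rhesus macaques given an anti-IL-15 antibody and 6 from macaques given an IgG1 control antibody. They were chosen by their time and treatment labels from 23 arrays in all, and the other 11, taken before treatment from 5 and 6 of the same animals, served only to show how far the arms already differed. Each array held total RNA of TEM sorted from peripheral blood mononuclear cells (PBMC) of 1 animal, so the arms were compared between different animals. The control animals carried an antibody too, of the IgG1 class, and were not left untreated. Antibody dose, sampling day, age and sex are not given in the sources used here. The arrays were Illumina bead arrays whose probes name human genes, so a probe that pairs poorly with the macaque transcript can read low whatever the cells express.

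IL-15 is held on the surface of neighbouring cells by its own receptor chain and is handed to T cells and natural killer cells that carry IL2RB and IL2RG, the shared signalling chains. The signal runs through the JAK kinases to STAT5, which in T cells is known to sustain BCL2 and to allow slow division of memory cells without antigen. Effector memory CD8+ T cells patrol blood and tissue, store perforin and granzymes, and bear several receptors first described on natural killer cells.

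Each array detected 11263 to 13193 probes, and 9190 genes entered the test. Levels are normalized log2 intensities throughout, and a difference is the anti-IL-15 mean minus the control mean, with its standard error (SE), on that scale. The sorted identity was checked with 15 genes typical of CD8+ TEM. All 15 were detected on at least 1 of the 12 arrays and 12 of them on all 12. CD3D, CD8A, CCL5, PRF1, GZMB and EOMES were among those detected everywhere, whereas the CD3E probe was detected on 1 array and the CD8B probe on 4. Of 9 markers of CD4 and regulatory T cells, CD4 and CCR4 were detected on none, whereas CCR6, ICOS and IKZF2 were detected on all 12. FOXP3 was detected in 0 control and 2 anti-IL-15 animals, IL2RA in 1 and 3, CTLA4 in 0 and 1, and CCR8 in 1 and 0. The summed signal of the 9 ran from 13700 to 15900 in each arm, with CCR6 at means of 13.81 and 13.82.

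The array of anti-IL-15 animal 5 stood apart from the other 11. Its score on the second principal component was 45.47, against at most 13.46 on any other. HBA1, an alpha globin, read 11.61 there and at most 8.48 elsewhere, while TYROBP, an adaptor of natural killer and myeloid cells, read 11.22 there and at most 10.84 elsewhere. The summed signal of 12 platelet and erythrocyte markers was 31600 on that array, at most 6710 on the other anti-IL-15 arrays and 1200 to 13800 in the control arm. PF4, ITGA2B and NRGN were undetected on all 12, whereas HBA1, HBA2 and HBB were detected on all 12. The summed signal of 13 natural killer markers was 3560 on the array of animal 5. It was 735 to 1570 in the control arm and at most 2740 on the other anti-IL-15 arrays. NCR1, SPON2, CLIC3, XCL1 and NMUR1 were undetected on all 12, whereas KLRF1, FCGR3A and TYROBP were detected on all 12. IL18RAP was detected in 5 control and 6 anti-IL-15 animals, and KLRC1 in 3 and 6. Results without anti-IL-15 animal 5 are given below for all genes, for the lists of mitosis, DNA replication, histones and glycolysis, and for single genes. In the other lists, leaving it out moved the number of members with an unadjusted p below 0.05 by at most 1 in each direction, except for mitochondrial ribosomal proteins, which had 7 higher with it and 10 without. The part of such cells in the results was not tested.

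Fewer TEM were recovered from the anti-IL-15 animals. The sorted samples held 66000, 101500 and 259557 cells (lowest, median and highest) in the control arm and 20000, 43500 and 109000 in the anti-IL-15 arm. The difference in mean log2 number was -1.27, or 2.41-fold (exact two-sided permutation test p = 0.0368, where the smallest possible p was 0.00216). The ranges overlapped, because anti-IL-15 animals 5 and 6 yielded more cells than control animals 1 to 4. Before treatment the difference was -0.38 (exact permutation p = 0.381). Leaving out control animal 5 or 6, or anti-IL-15 animal 1, 2, 3 or 4, gave p from 0.0671 to 0.0714.

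Animals 5 and 6 of each arm also differed from the rest in the Y-linked RPS4Y1, with log2 levels of 5.17 to 6.09 against 13.53 to 14.02. Among the 4 animals of each arm with high RPS4Y1, control samples held 66000 to 103000 cells and anti-IL-15 samples 20000 to 45000. Among the other 2, they held 231000 and 259557 against 109000 and 107000. Within neither set did the arms overlap. This split was chosen after seeing the data and was not tested, and 2 against 2 animals can readily fall apart by chance. The sorts also fed the arrays, so cell number moved with the arm in every comparison that follows, although RNA input was equalised at amplification. What fewer cells contributed to the gene values was not tested beyond the fit with cell number as a covariate, given where it changes a call.

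Of the 9190 genes, 1 (0.0109%) passed an adjusted p of 0.05 between the arms after treatment. It was NCR3, which encodes NKp30, an activating receptor of natural killer cells and some CD8+ T cells. No gene passed as higher with anti-IL-15 (0.00%, limma), while 732 genes (7.97%) had an unadjusted p below 0.05, 354 (3.85%) higher and 378 (4.11%) lower. In the authors' deposited log2 table, as without background correction or with a larger offset, 3 genes passed, NCR3 lower and CENPW and IFI27 higher. With 75th percentile scaling 4 passed, 1 higher (IFI27) and 3 lower (NCR3, BCL2 and CSNK1E). The 6 arrays of each arm did not overlap for 24 genes higher (0.261%) and 28 lower (0.305%) with anti-IL-15.

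NCR3 read 9.94, 10.69 and 11.40 (lowest, median and highest) in the control arm and 8.46, 8.94 and 9.69 with anti-IL-15. Every anti-IL-15 animal lay below every control animal. NCR3 was lower by a log2 difference of -1.70 (SE 0.24, adjusted p = 0.0131), or 3.25-fold. The means before treatment already differed by -0.55, with overlapping arms. Leaving out control animal 5 or 6 or anti-IL-15 animal 3 or 6 ended this call, with an adjusted p of at most 0.0632, and its difference stayed between -1.85 and -1.53 in all alternatives.

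**Figure D1:**
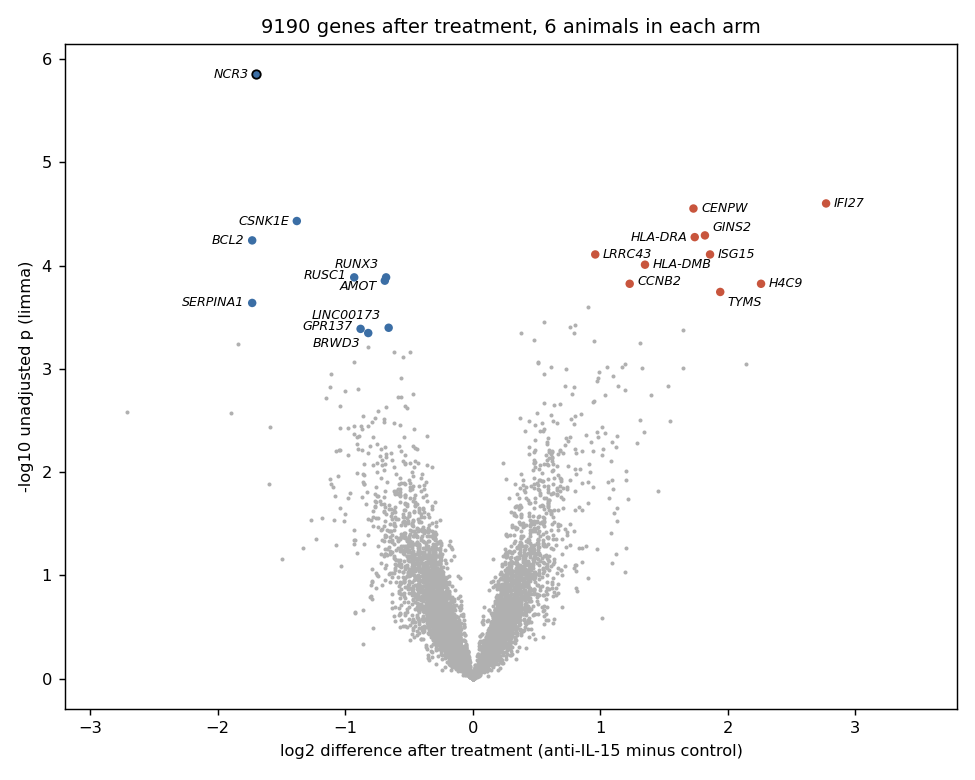
Log2 difference after treatment (anti-IL-15 minus control, x axis) against -log10 of the unadjusted p (y axis) for 9190 genes, each a grey point; the 10 genes of smallest p in each direction are named, red where higher and blue where lower with anti-IL-15, and the black outline marks an adjusted p below 0.05. NCR3 stands above all other genes, and the genes next to it include BCL2 and CSNK1E on the lower side and IFI27, CENPW, GINS2 and HLA-DRA on the higher side.

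BCL2, which blocks the mitochondrial path of cell death, did not pass over all genes but ranked among the lower genes of smallest p. It read 5.92, 6.90 and 8.02 in the control arm and 4.61, 5.09 and 5.59 with anti-IL-15. The arms did not overlap, and the probe was detected in 6 of 6 control and 3 of 6 anti-IL-15 animals. The difference was -1.73 (SE 0.33, adjusted p = 0.0750), against -0.11 before treatment. A second BCL2 probe gave -1.76 (SE 0.31), and the other probes, both dim, gave -0.42 and -0.16. Without anti-IL-15 animal 5 the difference was -1.82 and passed (adjusted p = 0.0336). Without background correction it was -0.74 (adjusted p = 0.158).

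**Figure D2:**
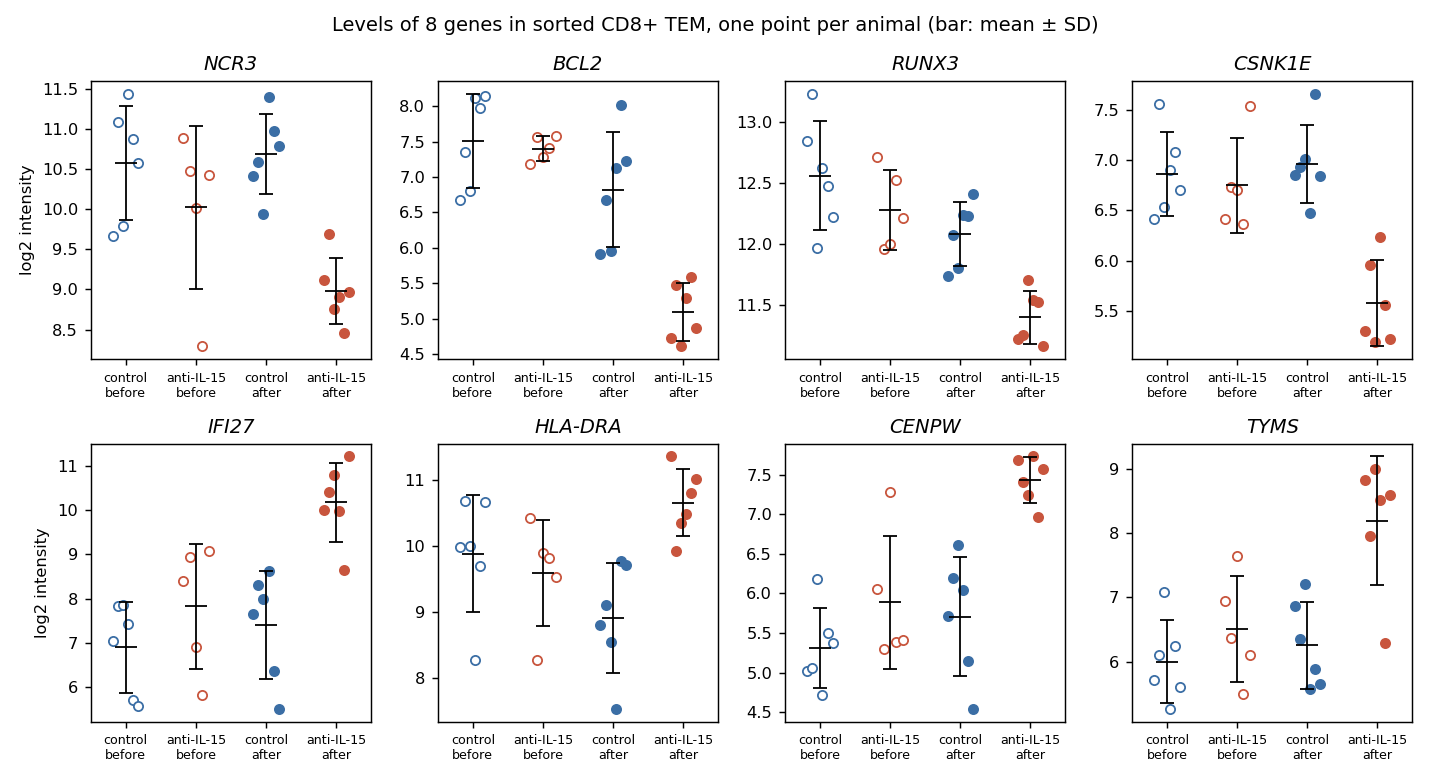
Log2 intensity (y axis) of 8 genes in each animal, open circles before and filled circles after treatment, blue for the control and red for the anti-IL-15 arm; bars are the mean ± SD of 5 or 6 animals. After treatment the arms did not overlap for NCR3, BCL2, RUNX3, CSNK1E, IFI27, HLA-DRA and CENPW, and overlapped for TYMS through anti-IL-15 animal 5 alone.

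Of the BCL2 family, 14 members were tested, 7 were above 0, and the median difference was 0.04, against -0.02 over all 9190 genes. BCL2L1, which encodes the protective BCL-XL, read 9.22, 9.85 and 10.70 in the control arm and 8.59, 9.33 and 9.52 with anti-IL-15. Its difference was -0.82 (SE 0.24, adjusted p = 0.317) with overlapping arms, and a second, dimmer probe gave 0.09. The proapoptotic BIK stood at 0.60 and BNIP1 at 0.38, both near the limit of detection. No member passed.

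Among 20 targets and feedback genes of STAT5, 3 had an unadjusted p below 0.05, all lower, where 4.11% of all genes were, and they were BCL2, BCL2L1 and CCND2. CCND2, the D cyclin that links cytokine signals to entry into the cycle, read 7.80, 8.58 and 8.99 against 7.40, 7.81 and 8.11. Its difference was -0.69 (SE 0.22, adjusted p = 0.354) and 0.03 before treatment. Over all 20, 11 were above 0 and the median was 0.04. Before treatment 13 were above 0 and the median was 0.04. At an unadjusted p below 0.05, 3 were then higher and 2 lower, where 4.93% and 5.56% of all genes were.

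The receptor chains themselves differed little. IL2RB, the chain shared by IL-2 and IL-15, read 6.03 to 7.80 in the control arm and 6.18 to 6.61 with anti-IL-15, a difference of -0.25 (SE 0.27). IL2RG, the common gamma chain, stood at -0.50 (SE 0.26), and at -0.83 before treatment. IL15 itself stood at 0.29 (SE 0.19) on a probe detected in 3 of 6 control animals and 6 of 6 anti-IL-15 animals. Of 19 genes of common gamma chain signalling, 1 had an unadjusted p below 0.05, on the higher side, where 3.85% of all genes were. It was the phosphatase PTPN2, with a difference of 0.45 (SE 0.20, adjusted p = 0.599). Over all 19, 7 were above 0 and the median was -0.11. Before treatment 7 were above 0 and the median was -0.19. An unadjusted p below 0.05 was then reached by 3, all lower, where 5.56% of all genes were. IL15RA was not tested here.

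Of 29 effector and memory transcription factors, 10 were above 0 and the median difference was -0.10. An unadjusted p below 0.05 was reached by 4, all lower, where 4.11% of all genes were. Before treatment 11 were above 0 and the median was -0.06. At that p 1 was then lower, where 5.56% of all genes were. RUNX3, which sustains the CD8 lineage and the cytotoxic programme, read 11.74, 12.15 and 12.41 in the control arm and 11.16, 11.38 and 11.70 with anti-IL-15. The arms did not overlap, and the difference was -0.68 (SE 0.14, adjusted p = 0.0932), against -0.28 before treatment. A second, dimmer RUNX3 probe gave 0.10.

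IKZF3, which encodes the lymphoid regulator Aiolos, read 6.34, 6.85 and 7.36 against 5.02, 6.03 and 6.39, a difference of -1.00 (SE 0.27, adjusted p = 0.247). It had stood at -0.71 before treatment. The other 2 were NFATC3, a calcineurin-dependent factor, at -0.56, and KLF2, which holds T cells in quiescence and circulation, at -0.32. No factor passed over all genes.

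The cytotoxic molecules did not separate the arms after treatment. Of 15 tested, 8 were above 0, the median was 0.01, and none had an unadjusted p below 0.05, where 7.97% of all genes had. Before treatment 2 of the 15 were above 0 and the median was -0.31. An unadjusted p below 0.05 was then reached by 4, all lower, where 5.56% of all genes were. PRF1, the pore-forming perforin, read 8.18, 9.63 and 10.42 in the control arm and 8.35, 9.38 and 9.83 with anti-IL-15. The arms overlapped throughout, with a difference of -0.34 (SE 0.34), against -0.79 before treatment. GZMB, a death-inducing granule protease, stood at -0.12 (SE 0.34), and GZMM, another granzyme, at 0.40 (SE 0.35) and at 0.26 without animal 5. Without that animal 1 of the 15 had an unadjusted p below 0.05, on the lower side, where 3.71% of all genes were.

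The granule release machinery had 4 of 20 members with an unadjusted p below 0.05, 1 higher and 3 lower, where 3.85% and 4.11% of all genes were. Before treatment 1 was likewise higher and 3 were lower at that p, where 4.93% and 5.56% of all genes were. RAB27B, a small GTPase of secretory vesicles, read 7.24, 8.36 and 9.10 against 6.23, 7.20 and 7.96, a difference of -0.96 (SE 0.36, adjusted p = 0.451). It had stood at 0.74 before treatment. RAB27A, which docks lytic granules, stood at -0.47 and its partner SYTL2 at -0.62, whereas the vesicle fusion protein VAMP8 stood at 0.38. Before treatment these had stood at -0.36, -0.44 and 0.45.

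Of 19 natural killer type receptors, NCR3 was the only one with an unadjusted p below 0.05, on the lower side, where 4.11% of all genes were. The other 18 and NCR3 together had a median of -0.07, with 7 above 0. Before treatment their median was -0.05, again with 7 above 0. At an unadjusted p below 0.05, 1 was then higher and 2 lower, where 4.93% and 5.56% of all genes were. CX3CR1, the fractalkine receptor that marks cytotoxic effector cells in blood, read 8.59, 9.45 and 10.36 in the control arm and 8.33, 8.47 and 9.00 with anti-IL-15. Its difference was -0.89 (SE 0.27, adjusted p = 0.333), and before treatment it was -1.04. ITGAE, the integrin chain that holds T cells in epithelia, stood at 0.68 (SE 0.25, adjusted p = 0.439).

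Genes of cell division stood higher with anti-IL-15, although none passed over all genes in the comparison of the 12 arrays. Of 41 mitosis and kinetochore genes, 36 were above 0, where 45.7% of all genes were, and the median difference was 0.56. An unadjusted p below 0.05 was reached by 19 higher and 1 lower, BUB3, where 3.85% and 4.11% of all genes were. Before treatment 26 were above 0 and the median was 0.20. An unadjusted p below 0.05 was then reached by 7, all higher, where 4.93% of all genes were. CENPW, a centromere protein, read 4.54, 5.88 and 6.61 in the control arm and 6.97, 7.49 and 7.73 with anti-IL-15. The arms did not overlap, and the difference was 1.73 (SE 0.31, adjusted p = 0.0750), against 0.57 before treatment.

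CDC20, which activates the complex that ends metaphase, read 5.07, 6.99 and 8.31 against 6.71, 9.02 and 9.55. Its difference was 2.14 (SE 0.54, adjusted p = 0.201), against 0.86 before treatment, and animal 5 was the lowest of the anti-IL-15 arm. CCNB2, a mitotic cyclin, was detected in 1 control and 5 anti-IL-15 animals and differed by 1.23 (SE 0.26, adjusted p = 0.0932). TOP2A, which untangles DNA for chromosome separation, was undetected in all 6 control animals and detected in 4 of 6 anti-IL-15 animals, at least 1.41-fold higher (adjusted p = 0.171). MKI67 was not tested here.

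**Figure D3:**
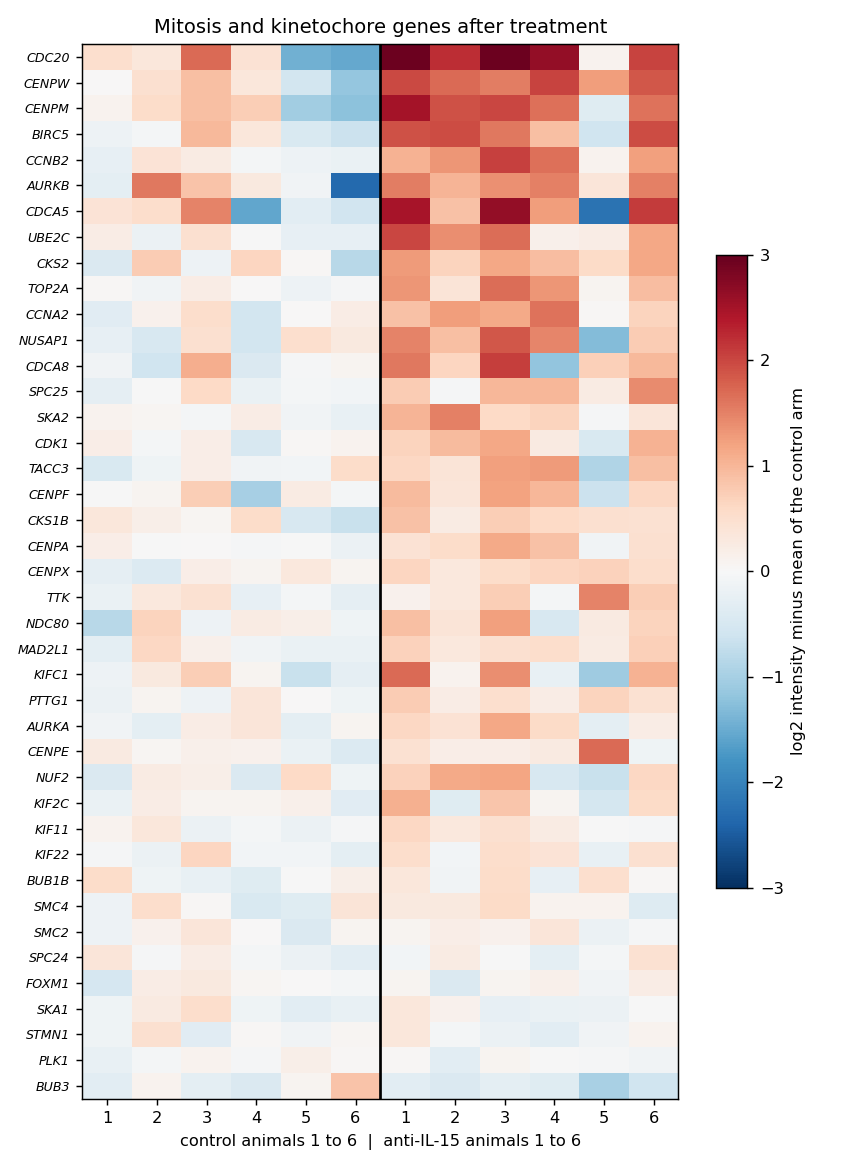
Log2 intensity of each of 41 mitosis and kinetochore genes (rows) in the 12 animals after treatment (columns) minus the mean of the 6 control animals; red is higher and blue lower. Anti-IL-15 animals 1, 2, 3, 4 and 6 are red for most genes in the upper part, and animal 5 is mostly close to the control animals.

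In DNA replication and nucleotide synthesis, 26 of 30 genes were above 0 and the median was 0.34. Of the 30, 10 had an unadjusted p below 0.05, all higher, where 3.85% of all genes were. GINS2, part of the replicative helicase, read 4.95, 5.25 and 6.58 against 5.83, 7.44 and 7.85, a difference of 1.82 (SE 0.34, adjusted p = 0.0750). TYMS, which makes thymidylate, read 5.57, 6.11 and 7.21 against 6.29, 8.55 and 9.00, a difference of 1.94 (SE 0.41, adjusted p = 0.105). In both genes the overlap came from the lowest anti-IL-15 animal, which was animal 5. Before treatment GINS2 had stood at 0.78 and TYMS at 0.51, 24 of the 30 genes were above 0 and the median was 0.25. An unadjusted p below 0.05 was then reached by 5, all higher, where 4.93% of all genes were. The helicase subunits MCM2, MCM4, MCM5, MCM6 and MCM7 were all among the 10, with differences of 1.31, 1.19, 0.93, 0.71 and 0.72, against 0.41, 0.12, -0.31, 0.45 and 0.26 before treatment.

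Histone genes, which are transcribed mainly while DNA is copied, followed the same direction. Of 22 tested, 21 were above 0 and the median was 0.52. An unadjusted p below 0.05 was reached by 12, all higher, where 3.85% of all genes were. Before treatment 13 were above 0 and the median was 0.17. At that p 3 were then higher and 1 lower, where 4.93% and 5.56% of all genes were. H4C9 read 4.73, 5.70 and 8.14 in the control arm and 7.52, 8.07 and 9.04 with anti-IL-15, a difference of 2.26 (SE 0.47, adjusted p = 0.0932). It had already stood at 1.47 before treatment. H2AZ1, the replication-independent variant H2A.Z, stood at 0.51 (SE 0.13), and at -0.01 before treatment. Histone genes are near-identical copies, so a probe may read several of them.

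Cyclins, pocket proteins and inhibitors of cyclin-dependent kinases had 7 of 20 above 0 and a median of -0.02. At an unadjusted p below 0.05, 1 was higher and 4 were lower, where 3.85% and 4.11% of all genes were. The lower ones were CCND1, CCND2, CDKN2B and KLF2. CCNE1, the cyclin that opens DNA replication, read 6.05, 6.39 and 6.98 against 6.04, 7.57 and 8.64, a difference of 1.13 (SE 0.35, adjusted p = 0.333). Of the D cyclins, CCND1 stood at -1.00 (SE 0.41) and CCND2 at -0.69, whereas CCND3, the third, stood at -0.05 (SE 0.18).

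Anti-IL-15 animal 5 was singled out after seeing the data, and it was the lowest of its arm for GINS2, TYMS, CCNB2 and CDC20. Leaving it out therefore widens the differences of such genes. Of the 12 fits that left out 1 animal, the one without it called the most genes, and the others called 0 to 7. Without anti-IL-15 animal 5, 19 genes (0.207%) passed, 16 of them higher (0.174%). They held GINS2, TYMS, CCNB2, MCM4, CENPW, TOP2A, KIF15, BIRC5, CDC20, CENPM, CCNE1 and CDC45 of the cell cycle, and for those other than TOP2A the differences ran from 1.40 to 2.55. The members with an unadjusted p below 0.05 on the higher side were then 26 of 41 for mitosis, 13 of 30 for replication and 15 of 22 for histones, where 4.30% of all genes were, and 3.71% were on the lower side. With the animals of high and low RPS4Y1 as a block, chosen after seeing the data, 13 genes (0.141%) passed, among them CDC20 and CENPW (adjusted p = 0.00848 for both), GINS2, TYMS, CCNB2 and CENPM. Over all 23 arrays with animal as a random block, 18 genes passed, among them CENPW, GINS2, CCNB2, TYMS, TOP2A, MCM2 and UBE2C. With the number of sorted cells as a covariate the median of the mitosis list was 0.40 and that of the replication list 0.29, and CENPW stood at 1.18 (adjusted p = 0.297).

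MHC class II genes, which present peptides to CD4 T cells and are also carried by activated human T cells, stood higher with anti-IL-15. Of 17 tested, 16 were above 0, and the median was 0.49 against -0.09 before treatment. Of the 17, 7 had an unadjusted p below 0.05, all higher, where 3.85% of all genes were. HLA-DRA, the constant chain of HLA-DR, read 7.53, 8.95 and 9.77 in the control arm and 9.92, 10.64 and 11.35 with anti-IL-15. The arms did not overlap, and the difference was 1.74 (SE 0.33, adjusted p = 0.0750), against -0.30 before treatment. A second HLA-DRA probe gave 0.91 (SE 0.24). With cell number as a covariate HLA-DRA stood at 2.36 and passed (adjusted p = 0.0126). That fit also called RPS4Y1 and RPS4Y2 lower and XIST higher, although each arm held 4 animals with high and 2 with low RPS4Y1. Its calls, that of HLA-DRA included, therefore need caution.

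HLA-DMB, a chain of the peptide-loading chaperone, read 5.22, 5.91 and 6.56 against 6.75, 7.11 and 8.03, again without overlap. Its difference was 1.35 (SE 0.27, adjusted p = 0.0903), and 0.03 before treatment. HLA-DMA, its partner, stood at 1.05, and CIITA, the master regulator of the class, at 0.61 on a probe detected in 1 control and 4 anti-IL-15 animals. HLA-DRB1, HLA-DRB3 and HLA-DRB4 stood at 0.81, 1.20 and 1.40, but these probes name human loci of a family of close copies and may read the same macaque transcripts.

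B cells and myeloid cells also carry MHC class II. The summed signal of 12 B cell markers was 92 to 371 in the control arm and 116 to 209 with anti-IL-15. PAX5, BLK and BANK1 were undetected on all 12 arrays and MS4A1 on 6 of the 12. CD79A was detected in 5 control and 4 anti-IL-15 animals. CD79B was detected in 4 and 5, with means of 6.76 and 6.27. The summed signal of 17 monocyte and dendritic cell markers was 297 to 406 against 293 to 531, with S100A12, VCAN, MNDA and CD1C undetected on all 12. Of the other members, CD14, TYMP and ITGAX were detected on all 12 and stood at -0.22, 0.36 and -0.43. FCN1 stood at 0.32 (SE 0.15) and was detected in 2 control and 4 anti-IL-15 animals, LYZ stood at 0.46 (SE 0.31) and at 0.19 without animal 5, and S100A9 was detected on 1 array, of the anti-IL-15 arm, at 7.26. The summed signal of 10 neutrophil markers was 88 to 165 in the control arm and 86 to 442 with anti-IL-15. CAMP, a granule peptide of neutrophils, read 4.29, 4.90 and 6.52 against 4.29, 6.28 and 8.47, highest in anti-IL-15 animals 3 and 5. FCGR3B was detected in 6 control and 5 anti-IL-15 animals and stood at -0.09 (SE 0.23), whereas MPO, ELANE and CEACAM8 were undetected on all 12. The part of these cells in the MHC class II values was not tested. In sorted bulk RNA, fewer cells of a type and less RNA per cell cannot be told apart.

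Interferon-induced genes stood higher in part. Of 33 type I interferon response genes, 23 were above 0, where 45.7% of all genes were, and the median was 0.12. An unadjusted p below 0.05 was reached by 5, all higher, where 3.85% of all genes were. IFI27, a mitochondrial protein strongly induced by interferon, read 5.50, 7.82 and 8.62 in the control arm and 8.64, 10.21 and 11.22 with anti-IL-15. The arms were apart by a narrow margin, and the difference was 2.77 (SE 0.49, adjusted p = 0.0750), against 0.93 before treatment. ISG15, a ubiquitin-like modifier, read 8.26, 9.39 and 10.81 against 10.79, 11.18 and 11.85, a difference of 1.86 (SE 0.36, adjusted p = 0.0800), against 0.78 before treatment.

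The other 3 interferon genes were IFI6 at 1.08 (0.20 before treatment), ISG20 at 0.34 (0.12 before) and EPSTI1, which was undetected in all 6 control animals and at least 1.08-fold higher. Of 22 genes of antigen processing and the interferon gamma response, 18 were above 0 and the median was 0.22. Of the 22, 5 had an unadjusted p below 0.05, all higher, where 3.85% of all genes were. PSME2, a subunit of the proteasome activator PA28, read 9.23, 9.76 and 10.47 against 10.39, 10.76 and 10.86, a difference of 0.90 (SE 0.20, adjusted p = 0.128), against 0.54 before treatment. GBP2, a guanylate-binding protein of pathogen defence, stood at 1.19 (SE 0.30, adjusted p = 0.201), and at 0.49 before treatment. The immunoproteasome subunits PSMB9 and PSMB10 stood at 0.58 and 0.56, against -0.28 and -0.01 before treatment.

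Genes of mitochondrial respiration stood slightly but broadly higher, and in part had done so before treatment. Of 28 complex I genes, 25 were above 0 and the median was 0.30. An unadjusted p below 0.05 was reached by 11, all higher, where 3.85% of all genes were. The largest of these was NDUFB7, which read 7.53, 8.19 and 9.37 against 8.56, 9.46 and 9.92, a difference of 1.14 (SE 0.30, adjusted p = 0.240), against 0.60 before treatment. For complexes II to V, 28 of 30 were above 0 and the median was 0.28. At an unadjusted p below 0.05, 8 were higher and 1 lower, where 3.85% and 4.11% of all genes were. COX5A, a subunit of cytochrome oxidase, read 11.49, 11.72 and 11.80 against 11.88, 12.07 and 12.24 without overlap, a difference of 0.37 (SE 0.11, adjusted p = 0.314).

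The respiratory lists leaned the same way before treatment, with medians of 0.21 for complex I and 0.14 for complexes II to V. At an unadjusted p below 0.05, complex I then had 4 higher and 1 lower, and complexes II to V 7 higher and 2 lower. Of all genes, 4.93% were then higher and 5.56% lower. Mitochondrial ribosomal proteins had 47 of 63 above 0 and a median of 0.18, against 0.10 before treatment. At an unadjusted p below 0.05, 7 were higher, where 3.85% of all genes were. Before treatment 6 were higher and 1 lower, where 4.93% and 5.56% of all genes were. Cytosolic ribosomal proteins had 40 of 60 above 0 and a median of 0.06, against 0.16 before treatment. At that p they had 1 gene on each side, RPS9 and RPS25, where 3.85% and 4.11% of all genes were. Before treatment 13 of them were higher and 1 lower, where 4.93% and 5.56% of all genes were. Of 28 proteasome genes, 20 were above 0, with a median of 0.13, and PSMA1, a core subunit, stood at 0.63 (SE 0.19, adjusted p = 0.316) without overlap. Of 23 glycolysis genes, 16 were above 0, with LDHA, which makes lactate, at 0.37 and the glucose transporter SLC2A3 at 0.59, and TXNIP, which restrains glucose uptake, at -0.47. Before treatment these had stood at 0.14, 0.27 and -0.74. With all animals 3 glycolysis genes were higher and 1 lower at an unadjusted p below 0.05, where 3.85% and 4.11% of all genes were. Without anti-IL-15 animal 5 none was, on either side.

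Receptors for antigen and costimulation had medians near 0. Of 28 genes of the T cell receptor, CD8 and their kinases, 17 were above 0 with a median of 0.10, and CD8A stood at -0.07 (SE 0.16). Other CD8A probes gave 0.23 and -0.11. Before treatment 4 had been higher and 1 lower at an unadjusted p below 0.05, where 4.93% and 5.56% of all genes were. After treatment 3 were higher and 1 lower at that p, where 3.85% and 4.11% of all genes were. The higher ones were CD3D, a chain of the receptor complex, at 0.24 (SE 0.08, adjusted p = 0.372), the exchange factor VAV1 at 0.50 and the adaptor PAG1 at 0.63, which before treatment had stood at -0.01, 0.02 and 0.76. The lower one was UBASH3B, a phosphatase that damps T cell receptor signals, at -0.68 (SE 0.22, adjusted p = 0.361). Of 18 costimulatory and inhibitory receptors, 9 were above 0 and the median was 0.00.

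LAG3, an inhibitory receptor that binds MHC class II, read 6.49, 8.33 and 9.13 in the control arm and 7.75, 9.30 and 9.95 with anti-IL-15. Its arms overlapped, with a difference of 1.13 (SE 0.45, adjusted p = 0.502), against -0.49 before treatment. ICOS, a costimulatory receptor of activated T cells, stood at 0.80 (SE 0.26, adjusted p = 0.354), and at 0.71 before treatment. Naive and central memory genes had 5 of 12 above 0 and a median of -0.03, with ACTN1, an actin cross-linker, at -0.91 (SE 0.45), at -0.53 without animal 5 and at 0.34 before treatment. Immediate early and stress genes had 17 of 30 above 0 and a median of 0.11 (0.01 without animal 5), and death receptors and caspases 15 of 24 and 0.08.

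Several of the genes of smallest p belonged to no list. CSNK1E, which encodes a casein kinase of the circadian clock and Wnt signalling, read 6.47, 6.89 and 7.66 in the control arm and 5.19, 5.43 and 6.23 with anti-IL-15. The arms did not overlap, and the difference was -1.38 (SE 0.25, adjusted p = 0.0750), against -0.12 before treatment. Its other probes, both dim, gave -0.32 and -0.24. SERPINA1, the protease inhibitor alpha-1 antitrypsin, stood at -1.73 (SE 0.37, adjusted p = 0.123), but at -1.48 before treatment.

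RUSC1 stood at -0.93, GPR137 at -0.88, BRWD3 at -0.82, AMOT, an angiomotin of cell junctions, at -0.69, and the noncoding RNA LINC00173 at -0.66. Before treatment they had stood at -0.56, -0.50, -0.51, -0.03 and 0.33. AMOT, BRWD3 and LINC00173 were each detected in 6 of 6 control animals and 1 of 6 anti-IL-15 animals. On the higher side LRRC43 stood at 0.96 (SE 0.19, adjusted p = 0.0800), detected in 2 control and 6 anti-IL-15 animals, and had stood at 0.67 before treatment.

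**Figure D4:**
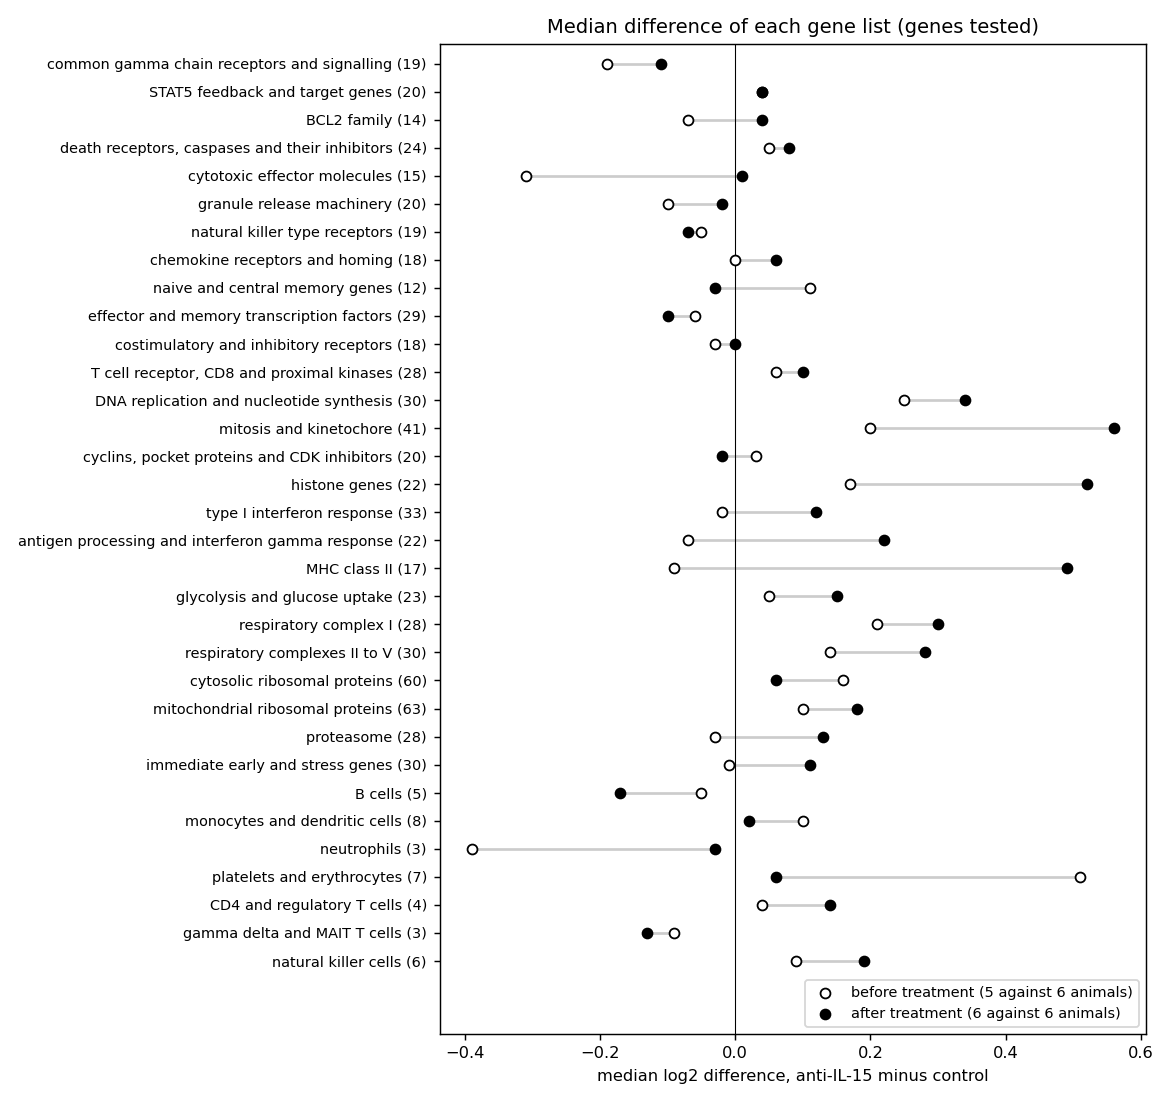
Median log2 difference between the arms (x axis, anti-IL-15 minus control) of the tested genes of 33 lists (rows, number tested in parentheses), open before and filled after treatment. The medians of mitosis, histone and MHC class II genes lie furthest to the right after treatment, at 0.56, 0.52 and 0.49, and stood at 0.20, 0.17 and -0.09 before; that of DNA replication stood at 0.34 after and 0.25 before.

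Before treatment the arms also differed in single genes. None passed over all genes (0.00%, limma), 964 (10.5%) had an unadjusted p below 0.05, 453 higher (4.93%) and 511 lower (5.56%), and for 79 (0.860%) the arms did not overlap. Of the 354 genes higher after treatment at an unadjusted p below 0.05, 257 (72.6%) had the same sign before, and of the 378 lower genes 259 (68.5%) did. The same animals gave both times, except anti-IL-15 animal 3, which has no array from before treatment. A fit of all 23 arrays, with animal as a random block, compared the difference after treatment with that before, and no gene passed (0.00%). That contrast was 2.05 for HLA-DRA and -1.61 for BCL2, both with an adjusted p of 0.338, and that of NCR3 was -1.14 (adjusted p = 0.455).

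**Figure D5:**
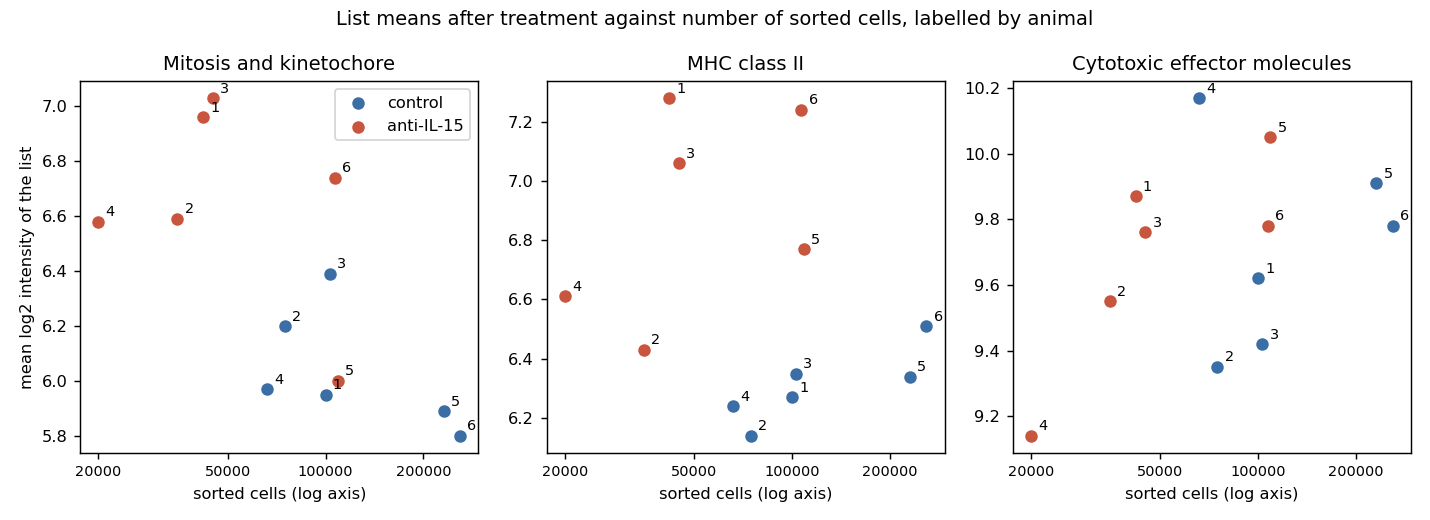
Mean log2 intensity of the tested members of 3 lists (y axis) against the number of sorted cells (x axis, log scale) for the 12 animals after treatment, blue for control and red for anti-IL-15, numbered by animal. Mitosis means run from 5.80 to 6.39 in the control arm and from 6.00 to 7.03 with anti-IL-15, MHC class II means from 6.14 to 6.51 and 6.43 to 7.28, and cytotoxic means overlap at 9.35 to 10.17 and 9.14 to 10.05.

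The list means by animal showed which animals carried these differences. The mitosis mean lay between 5.80 and 6.39 in the control arm, and anti-IL-15 animal 5, at 6.00, was the one anti-IL-15 animal inside that range. For MHC class II the control arm ran from 6.14 to 6.51 and the anti-IL-15 arm from 6.43 to 7.28, where animal 2 was the one inside the control range. Anti-IL-15 animals 5 and 6 yielded like numbers of cells, 109000 and 107000, yet had mitosis means of 6.00 and 6.74. The 28S ribosomal RNA probe read 6.31, 8.08 and 11.60 (lowest, median and highest) in the control arm and 7.20, 9.82 and 11.89 with anti-IL-15. The part of this probe's signal in these values was not tested beyond the fit with it as a covariate.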

How the data were processed

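Members and gene lists were chosen with earlier results of these data known. The signal table deposited by the authors holds 1 intensity per probe and array, neither background-corrected nor normalized as its values show, and the deposited detection p-value of each probe. The authors also deposited log2 values, used here as an alternative. The submitters' processing notes name limma, with its version not given in the sources used here. Per the labels' protocols, RNA input was equalised before amplification, so levels are relative to total RNA.

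Intensities of all 23 arrays were corrected (normexp, offset 16), quantile normalized and put on the log2 scale with neqc (limma 3.58.1, R 4.3.3). After 9 probes with a signal of 0 were left out, 15744 of 47230 were kept for having a detection p below 0.05 on at least 5 arrays. The annotation table gives a single symbol for 11131 of the kept probes, several for 1 and none for 4612. The brightest probe stood for each of 9190 genes. Detected means a detection p below 0.05. Where an arm has no detected array for a probe, its fold is a bound computed from the dimmest detected signals. Arms were compared by lmFit and eBayes with an intensity trend, and p-values adjusted by Benjamini-Hochberg over all 9190 genes with a threshold of 0.05. The number of arrays limits the precision.

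The treatment and time labels define the groups, and animals are numbered within an arm. Labels give a donor for each array, so animals are the replicates, and scan batches are not given in the sources used here. Genes named are the 10 of smallest p in each direction, the 2 of smallest p in each list, and a set of IL-15 pathway and CD8 genes; further list members were named after their values were seen. A gene can stand in several lists. On simulated data with 200 of 9190 genes changed, the comparison after treatment recovered 29.9%, 61.2% and 98.5% of genes changed by 1.5-, 2- and 4-fold, with 6 unchanged genes called. On the 12 arrays, IFI27, H4C9 and CDC20 differed by 6.84-, 4.80- and 4.42-fold and did not pass (limma, adjusted p = 0.0750, 0.0932 and 0.201). Whether the recovered percentages hold for these arrays was not tested. Alternatives are given in the closing section.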

Additional observations from a re-analysis of the deposited data

Results flagged for a closer look

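Among 222 groups of 6 animals, 17 held a highest or lowest animal set far from the other 5 relative to the range of the group, where chance gives about 1 in 20. Of the 17, 4 were anti-IL-15 animal 5, which read 5.83 for GINS2 (the others 7.33 to 7.85), 6.82 for KLRC1, a receptor of natural killer cells (5.02 to 5.68), 7.63 for the mean of the histone genes (8.15 to 8.36) and 9.32 for that of platelet and erythrocyte genes (6.30 to 7.33). Control animal 3 was high for GINS2 at 6.58 (4.95 to 5.56) and for the DNA replication mean at 7.11 (6.68 to 6.80). Control animal 1 was high for KLRC1 at 6.35 and low for the mean of death receptors and caspases at 6.75. Control animal 4 was high for PTPN2 at 5.68 and for the proteasome mean at 8.96. Control animal 5 was low for the type I interferon mean at 6.78 and high for the mean of 4 genes of CD4 and regulatory T cells at 7.87. That mean includes CCR6, whose probe read 13.72 to 13.95 on all 12 arrays. Control animal 6 was high for TUBB1 at 5.96. Anti-IL-15 animal 3 was low for MRPL53 at 9.19 and for NDUFS5 at 4.58, animal 4 low for PSME2 at 10.39, and animal 2 high for the cytosolic ribosomal protein mean at 11.80.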

How the results depend on the processing

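The number of genes past the threshold after treatment was 1 in the reported fit. It was 3 with an offset of 50, without background correction, in the authors' deposited log2 table or among probes detected on all 12 arrays, and 4 with 75th percentile scaling. It was 11 with array weights, 18 over all 23 arrays with animal as a random replicate block, 6 with the 28S probe as covariate, 11 with log2 cell number as one, and 13 with a block for RPS4Y1 level, chosen after seeing the data. Leaving out 1 animal gave 0 to 19, with 0 without control animal 5 or 6 or anti-IL-15 animal 3 or 6, 7 without control animal 3 and 19 without anti-IL-15 animal 5. No paired analysis was possible because the arms hold different animals. Before treatment, leaving out 1 animal gave 0 to 1, with 1 without control animal 3 or 5. The cell number difference was -79426 cells on the untransformed scale (exact permutation p = 0.0584), and its log2 value was -1.50 to -1.01 when 1 animal was left out. NCR3 passed in 25 of 29 settings. Values of genes that did not pass turned sign: CD8A to 0.02 with array weights, 0.04 with the 28S covariate, 0.12 with the cell number covariate, 0.05 without control animal 6 and 0.00 without anti-IL-15 animal 5 (-0.16 to 0.05 with 1 animal left out); FCGR3B to 0.05 without control animal 1 and 0.01 without anti-IL-15 animal 4 (-0.18 to 0.05); GZMB to 0.03 with array weights and 0.21 without control animal 4 (-0.33 to 0.21); and, with the cell number covariate, IL2RB to 0.12, PPBP to 0.18 and PRF1 to 0.07. The cause was not tested. The median stayed above 0 in all alternatives for mitosis (0.24 to 0.62), DNA replication (0.16 to 0.45), histones (0.20 to 0.68) and MHC class II genes (0.26 to 1.05). Probes near the lowest detected signals give compressed differences.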
